A study of Mus musculus with 4 samples.

Results

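A set of 10 antimicrobial genes of the skin was followed in inflamed mouse ears with and without RelA in the keratinocytes. They were the beta-defensins Defb1, Defb3, Defb4, Defb6, Defb14 and Defb40, the cathelicidin gene Camp, and Lcn2, Slpi and Pglyrp1. They were chosen by name, as every non-control spot whose gene name in the array files is 1 of these 10, which gave 11 probes, 2 of them for Camp, of 55681 probes and 34797 gene names on the array. Each of the 11 probes has 1 spot, and no outlier or saturation flag was set for any of them.

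RNA came from whole ears taken 48 h after treatment with DNFB (2,4-dinitrofluorobenzene), a contact sensitiser used to provoke allergic skin inflammation. The 2 mice called wild type here have the genotype RelAfl/fl, a floxed RelA allele with no recombinase, and the 2 called mutant have the genotype K14Cre RelAfl/fl. All 4 mice thus carry the floxed allele and all 4 ears had been treated, so that no untreated ear is compared here. The keratin 14 promoter drives Cre in basal epidermal and hair follicle keratinocytes. Cells that descend from these inherit the deletion, and cells of the ear outside these lineages keep RelA. The labels used here give no strain, sex or age. Each ear was hybridised from 100 ng of RNA to 1 of 4 one-colour Agilent arrays. The comparison asks how these genes differ in DNFB-treated ears when RelA is deleted from the epidermis by K14Cre. Only the mutant mice carry Cre, so that effects of Cre itself and of RelA loss cannot be told apart.

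Beta-defensins are small cationic peptides with paired cysteines, secreted by epithelia, that damage microbial membranes and can also attract immune cells. Cathelicidin is made as a precursor and cut by proteases to an active peptide, and together with lipocalin-2, secretory leukocyte protease inhibitor and peptidoglycan recognition protein it is produced both by neutrophils and by epithelia. In inflamed skin, keratinocytes switch on many of these genes in response to cytokines such as interleukin-17, interleukin-1 and tumour necrosis factor and to microbial products. NF-κB, of which RelA is a subunit, is among the transcription factors that act downstream of these signals.

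A level below is the log2 intensity of a probe relative to the 75th percentile of its array, so that levels at the same probe can be compared between ears and levels at different probes cannot. A difference is the mean level of the 2 mutant ears minus that of the 2 wild-type ears, with limma's moderated standard error after ±. Mouse 1 and mouse 2 only name the animals of a group. The 4 arrays shared 1 slide and 1 scan, with 75th percentiles of 588.67 to 663.55 in intensity and 61.2% to 64.3% of spots well above background. The wild-type arrays lay at the first positions of the slide and the mutant arrays at the next, so that position and genotype cannot be told apart. A corner of mutant mouse 2's array was damaged: of the spots there with an intensity over 300 on the other arrays, 8.24% were dark, by which is meant at least 2 below the mean of those arrays on the log2 scale, against 0.0058% elsewhere. With 2 mice per group, an exact permutation test cannot give a p below 0.333, so p-values come from the fit over all 33664 probes tested. They measure the spread between these mice only.

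Probe sequences show which members the array can tell apart. The probes of Defb4 and Defb6 are near relatives: 33 of the 38 bases that can be aligned are identical (86.8%). The 30-base stretches below hold 4 of their 5 mismatches, in capitals.
Defb4: taaaaAgacGaagaaccagcaaGAtgaata
Defb6: taaaaGgacCaagaaccagcaaTGtgaata
From Defb4 to Defb6 the substitutions are G25A, A36G, G40C, G53T and A54G, with positions counted from 1 at the 5′ end of the Defb4 probe. The longest run shared by these probes has 12 bases. The Camp probes overlap, and differ at A16G and T20C (positions from the 5′ end of the first probe), shown in capitals.
Camp, first probe: cagccAgagTagtaggcctgccttggcctg
Camp, second probe: cagccGgagCagtaggcctgccttggcctg
Defb3 and Defb40, which had the widest gaps between the values of the 2 groups, are printed with the polyadenylation signal hexamer AATAAA in capitals where it occurs.
Defb3: attccttgattaaatgcaaacaagtgctcc
Defb40: taccatgtgtaaccattgctttAATAAAgg
That hexamer is in 2 of the 11 probes, Defb40 and the second Camp probe, and in 10.1% of all probes on the array. No other gene's probe on the array shares a run of 20 bases with any of the 11.

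Of the 6 beta-defensins, 5 lie together. On mouse build mm9 their probes run along chromosome 8 from Defb40 (chr8:18974949-18975008) through Defb14 (chr8:19195152-19195211), Defb4 (chr8:19201282-19201341) and Defb6 (chr8:19228090-19228149) to Defb3 (chr8:19295274-19295333). Defb1 lies farther along the same chromosome (chr8:22905041-22905100). The other probes are on chromosome 9 for Camp (chr9:109749911-109749970 and chr9:109749901-109749950), on chromosome 2 for Lcn2 (chr2:32240199-32240258) and Slpi (chr2:164179849-164179908), and on chromosome 7 for Pglyrp1 (chr7:19475662-19475721). The exon or untranslated region that each probe matches is not given, since no annotation of mm9 was at hand.

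In the mutant ears, 8 of the 11 probes had higher values in both mice than in either wild-type mouse: those of Defb1, Defb3, Defb4, Defb14, Defb40, Lcn2 and Pglyrp1 and the first Camp probe. Over all probes tested, both mutant ears were higher at 18.7% and lower at 17.6%. Defb6, Slpi and the second Camp probe overlapped between the groups, and no probe of the 10 genes was lower in both mutant ears. None of the 11 passed a limma adjusted p of 0.05 in either direction, and 2, Defb40 and Defb3, had an unadjusted p under it. Of all probes tested, 7 passed the adjusted threshold (0.0208%), 0.0119% with a higher and 0.00891% with a lower mutant level, and 6.56% had an unadjusted p under 0.05. Differences of the 11 probes had a median of 0.27, against 0.01 over all probes tested, and 9 of the 11 were above 0, against 52.6% of all. Defb40 met the signal filter only through the mutant ears and so had to differ. Of the other 10 probes, 7 were higher in both mutant ears and 8 were above 0, with a median of 0.25. The 10 genes were chosen with earlier results of these data known, so that these comparisons with all probes only describe the set and do not test it. Because the tissue is a whole ear, a change in the number of cells of a type and a change in RNA per cell cannot be told apart.

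**Figure D1:**
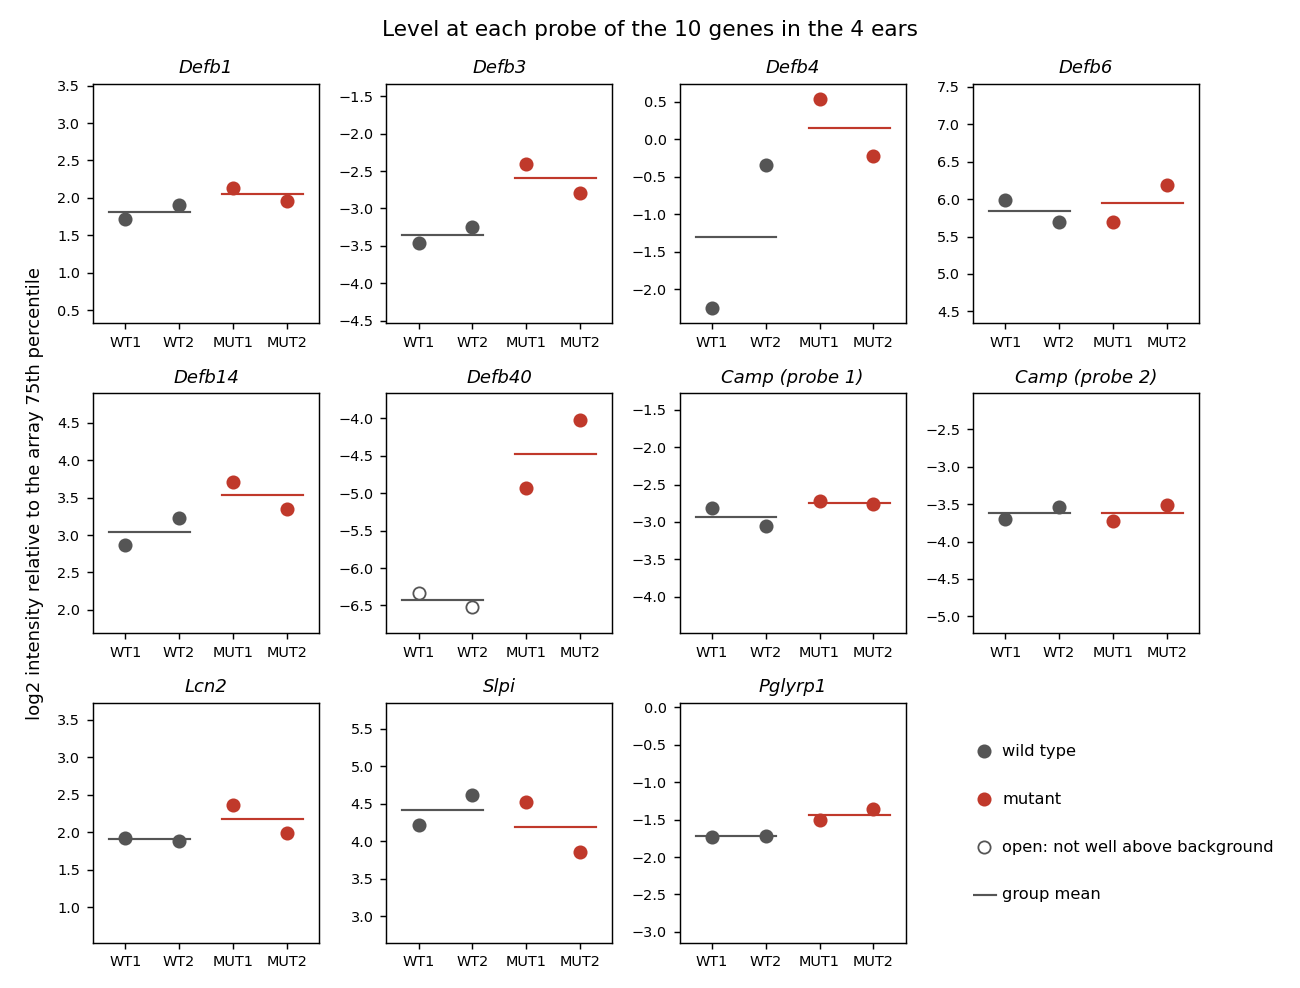
Level of each probe of the 10 genes in each ear (vertical axes, log2 intensity over the 75th percentile of its array, each panel spanning the same range), with wild-type mice in grey, mutant mice in red and group means as lines. The open Defb40 points, both wild type, are not well above background. Defb4 has the widest spread within a group, and Defb6, Slpi and the second Camp probe overlap between the groups.

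Defb40 was measured above background in the mutant ears only. Its intensity was 8.24 and 6.81 in wild-type mice 1 and 2, neither well above background, and 20.3 and 36.3 in mutant mice 1 and 2, both well above it. The mutant level was at least 1.98-fold higher, taking the lowest signal well above background on each wild-type array as the wild-type level. Such a pattern, dim in both wild-type ears and above background in both mutant ears, occurred at 0.401% of the probes tested. On the measured values the difference was 1.95 ± 0.33 (limma adjusted p = 0.481). The standard deviation was 0.13 in the wild-type and 0.64 in the mutant ears, so that the spread came mostly from the mutant ears. This p supports nothing, because the wild-type values in the difference are not above background. Without mutant mouse 1 the difference was 2.40. Mutant mouse 2 alone is then assumed to vary like the wild-type group, so that the p of that fit supports nothing either. With the other ears left out in turn the difference lay between 1.49 and 2.04. With normexp (offset 50) applied to the raw signal the difference was 0.47, so that the bound holds for the processed intensities only.

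Defb3, an inducible beta-defensin of epithelia, had levels of -3.46 and -3.24 in the wild-type ears and -2.41 and -2.79 in the mutant ears. Every mutant value exceeded every wild-type value, and the gap between the groups, 0.46, was larger than the gap between mice of either genotype, 0.21 and 0.38. The difference was 0.75 ± 0.18 (a 1.68-fold ratio, 95% interval on the log2 scale 0.28 to 1.23, limma adjusted p = 0.592). It stayed between 0.56 and 0.94 with each ear left out in turn, and was 0.47 with normexp.

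Defb4, an inducible beta-defensin of inflamed epithelia, varied more between mice than any other of the 10 genes. Its level was -2.25 and -0.35 in the wild-type ears and 0.54 and -0.22 in the mutant ears. Wild-type mouse 1 stood far below the other three, and wild-type mouse 2 lay just below mutant mouse 2, so that the groups were separated by only 0.12. The wild-type mice were 3.74-fold apart, a gap larger than that of 99.5% of all probes tested. The difference was 1.46 ± 0.69 (95% interval -0.37 to 3.28, limma adjusted p = 0.811), and it moved to 0.51 without wild-type mouse 1 and to 2.41 without wild-type mouse 2. The spot of Defb4 lies within the damaged corner of mutant mouse 2's array, where 1 of the 138 such spots within 10 rows and columns of it was dark. Leaving that corner out, which removes this ear for Defb4, gave a difference of 1.84.

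Defb14, a broadly active beta-defensin of skin and other epithelia, had levels of 2.87 and 3.23 in the wild-type ears and 3.71 and 3.35 in the mutant ears. Both mutant ears were higher, by a margin smaller than the distance between mice of either group. The difference was 0.49 ± 0.20 (a 1.40-fold ratio, 95% interval -0.04 to 1.02, limma adjusted p = 0.786). It was 0.31 without wild-type mouse 1 and also without mutant mouse 1, and 0.67 without either of the other ears.

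Defb1, which many epithelia express without induction, had levels of 1.72 and 1.90 in the wild-type ears and 2.14 and 1.96 in the mutant ears. Groups did not overlap, though wild-type mouse 2 and mutant mouse 2 were only 0.06 apart. The difference was 0.24 ± 0.14 (95% interval -0.12 to 0.60, limma adjusted p = 0.850). It was 0.15 without wild-type mouse 1 and also without mutant mouse 1.

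Defb6, whose probe resembles that of Defb4, did not share its pattern. Its level was 5.99 and 5.70 in the wild-type ears and 5.70 and 6.19 in the mutant ears. Mutant mouse 1 and wild-type mouse 2 were equal to 2 decimals, and mutant mouse 2 was the highest ear. The difference was 0.10 ± 0.22 (95% interval -0.47 to 0.67), and its sign depended on which ear was left out, from -0.15 to 0.34. Defb6 was first described in skeletal muscle, which the ear also holds. The 6 muscle markers tested had a median difference of -0.27, with none above 0, and a summed level (their intensities, each relative to the 75th percentile, added up) of 138.6 to 169.9 in wild-type and 107.2 to 147.4 in mutant ears, and their part in the Defb6 values was not tested.

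The same order of the ears, wild-type mouse 1 lowest, then wild-type mouse 2, mutant mouse 2 and mutant mouse 1, was seen for Defb1, Defb3, Defb4 and Defb14. That order was seen at 5.97% of all probes tested. It was picked after the values of these genes were seen, so that the share only describes and tests nothing. Mutant mouse 1 was the highest ear at 6 of the 11 probes and wild-type mouse 1 the lowest at 5. Defb40 had mutant mouse 2 highest.

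Camp encodes the only cathelicidin of the mouse. At its first probe the level was -2.81 and -3.05 in the wild-type ears and -2.72 and -2.76 in the mutant ears, which left the groups just apart, and the difference was 0.19 ± 0.13 (limma adjusted p = 0.867), moving to 0.07 or 0.31 when wild-type mouse 2 or mouse 1 was left out. At its second probe the level was -3.70 and -3.54 in the wild-type ears and -3.73 and -3.51 in the mutant ears, with a difference of -0.0017 ± 0.14. The second probe spans 50 of its 60 bases on mm9. At neither probe was a change detected, and the upper 95% bounds were 0.54 and 0.37.

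Lcn2 encodes lipocalin-2, which withholds iron from bacteria by binding their siderophores. Its level was 1.92 and 1.89 in the wild-type ears and 2.36 and 1.98 in the mutant ears. The wild-type mice were close together and mutant mouse 2 lay near them, so that most of the difference, 0.27 ± 0.16 (limma adjusted p = 0.858), came from mutant mouse 1. It was 0.08 without that ear.

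Slpi, which inhibits neutrophil elastase and protects tissue from it, had levels of 4.21 and 4.62 in the wild-type ears and 4.52 and 3.86 in the mutant ears. The groups overlapped, and the mutant mean was the lower one, as otherwise only at the second Camp probe. The difference was -0.23 ± 0.28 (95% interval -0.97 to 0.51), and it was 0.10 without mutant mouse 2.

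Pglyrp1 encodes a secreted protein that binds bacterial peptidoglycan. Its level was -1.73 and -1.72 in the wild-type ears and -1.50 and -1.36 in the mutant ears. Only 2.85% of the probes tested had wild-type values closer together, and both mutant values were above them. The difference was 0.29 ± 0.12, the smallest standard error among the 11 probes (95% interval -0.02 to 0.60, limma adjusted p = 0.779).

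**Figure D2:**
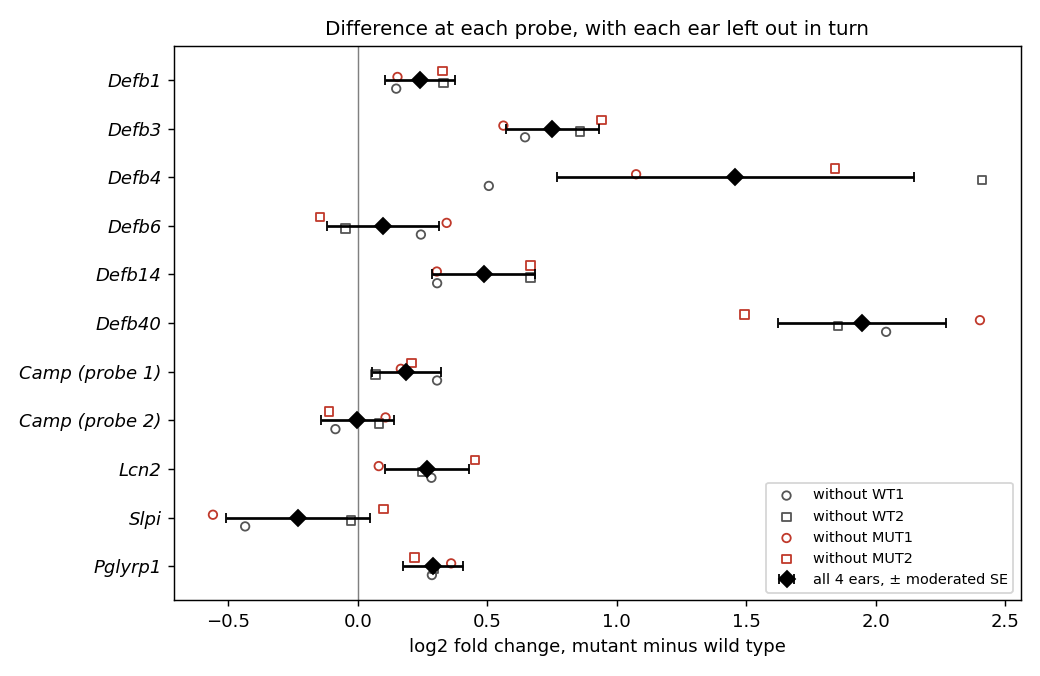
Difference, mutant minus wild type, on the log2 scale (horizontal axis) at each of the 11 probes. Black diamonds use all 4 ears with bars of ± 1 moderated standard error, and open symbols are the same difference with 1 ear left out. Defb4 ranges from 0.51 to 2.41, while Defb6, Slpi and the second Camp probe fall on both sides of 0. The Defb40 values are fitted from wild-type signals not well above background. Its difference is therefore given in the text as a bound of at least 1.98-fold, for the processed intensities only.

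The stretch of 320 kb between the Defb40 and Defb3 probes holds 12 beta-defensin genes of the array. The 7 that are not among the 10 genes, Defb5, Defb12, Defb34, Defb37, Defb38, Defb39 and Defb46, did not meet the signal filter: 5 were well above background on no array and 2 on 1 array. Of all 38 other beta-defensin genes on the array, 27 were above background nowhere and 5 had a tested probe, none past the threshold. Defb48-ps had a difference of 0.65 ± 0.25. Defb36 and Defb42 were well above background only in the wild-type ears, by at least 1.34-fold and at least 1.12-fold. They met the signal filter only through the wild-type ears and so had to differ, and the share of all probes with this pattern was not counted.

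Other antimicrobial genes were listed by name, and 26 of the 39 had a tested probe. None passed the threshold in either direction. Of the 26 differences 17 were above 0 (65.4%), against 53.5% of all 23624 genes tested, and the median was 0.18, against 0.01. S100a8, a subunit of the metal-binding protein calprotectin, had levels of 5.05 and 5.49 in the wild-type ears and 6.97 and 6.98 in the mutant ears. S100a9, its partner subunit, had 6.42 and 6.71 against 7.89 and 7.84. The differences were 1.71 ± 0.18 and 1.30 ± 0.14 (limma adjusted p = 0.442 for both), with the mutant values well apart from the wild-type values. S100a7a, a relative of human psoriasin, had a difference of 1.07 ± 0.36. In the list as a whole, 10 genes were higher and 5 lower in both mutant ears. Over all 23624 genes tested these counts were 4454 and 4111. Among the 5 lower genes of the list were Pglyrp2, a peptidoglycan amidase (-0.91 ± 0.27), the ribonuclease gene Rnase6 (-0.59 ± 0.17) and the lysozyme gene Lyz2 (-0.56 ± 0.12). Those named were chosen after their values were seen. At this Pglyrp2 probe mutant mouse 1 was not well above background, so that the size of its difference is uncertain. The other tested Pglyrp2 probe had a difference of -1.54.

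Receptors and partners of the 10 genes, such as chemokine and formyl peptide receptors and the proteases that process or are blocked by these proteins, had a tested probe for 19 of 20. None passed the threshold, 9 were above 0, against 53.5% of all genes tested, and the median was -0.01. Ccr6, the chemokine receptor through which beta-defensins can attract cells, overlapped between the groups, with 0.16 and -0.73 in the wild-type and -0.05 and 0.22 in the mutant ears. Klk14, an epidermal serine protease, had a difference of 1.05 ± 0.36, and Mmp9, a gelatinase whose product binds lipocalin-2, of -0.72 ± 0.13. Fpr1 had levels of -2.31 and -2.28 in the wild-type and -1.89 and -7.53 in the mutant ears. The last of these spots lies in the damaged corner of mutant mouse 2's array, and without it the mutant group has 1 value.

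Cytokines and regulators known to act upstream of antimicrobial genes had a tested probe for 27 of 28, none of them past the threshold. Of these, 16 were above 0, against 53.5% of all genes tested, and the median was 0.08. Il20 and Il19, related cytokines that act on keratinocytes, lay on opposite sides of 0. Il20 had levels of -1.79 and -2.11 in the wild-type and -3.38 and -4.61 in the mutant ears, and Il19 had -0.16 and 0.81 against 1.69 and 1.70. The differences were -2.04 ± 0.44 and 1.37 ± 0.34. Cebpe, a transcription factor of granulocyte genes, had a difference of 1.32 ± 0.32.

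Markers of neutrophils, which also carry Camp, Lcn2, Slpi and Pglyrp1, lay on both sides of 0. Of the 10 markers 8 had a tested probe, 3 of these were above 0, and the median difference was -0.08. In both mutant ears 1 was higher and 2 were lower, against 4454 and 4111 of all 23624 genes tested. Their summed level was 136.8 to 143.2 in wild-type and 140.0 to 142.9 in mutant ears, a sum that is mostly the signal of the Csf3r probe and says little of the others. Csf3r, the receptor for granulocyte colony stimulating factor, had a difference of -0.08 and the surface protein Ly6g of -0.09. Stfa2l1, by contrast, had a difference of 1.01 ± 0.14, and was higher in both mutant ears. The granule genes Ngp and Ltf were well above background on 0 and 1 array.

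Keratinocyte markers were listed to describe the tissue. Basal markers were present, with differences of 0.10 for Krt5, 0.24 for Krt14 and -0.74 ± 0.17 for Krt15, which was lower in both mutant ears, a median of 0.07 over 6 genes and a summed level of 698.4 to 810.5 in wild-type and 775.8 to 826.3 in mutant ears. Suprabasal markers lay on both sides of 0, with 2 of 6 above it, 4 below it and a median of -0.13. Differences were -0.13 for Lor, -0.13 for Krt10 and 0.39 for Krt1. All 4 wound keratinocyte markers, keratins of injured or inflamed epidermis, were higher in both mutant ears, as were 4454 of all 23624 genes tested. Their differences were 0.64 for Krt16, 0.56 for Krt6b and 0.65 for Krt17, with a median of 0.65 and none past the threshold. Their summed level was 547.8 and 873.8 in wild-type mice 1 and 2 and 1079.9 and 1039.4 in mutant mice 1 and 2. Wild-type mouse 1 was the lowest ear, as for Defb1, Defb3, Defb4 and Defb14. At 3 of the 4 markers the order of ears was that of these beta-defensins. That order was not particular to them: it was also seen at Krt14 and S100a9, and at 0 of the 8 neutrophil markers tested. The part of the wound keratinocyte markers in the beta-defensin differences was not tested. Median differences were -0.14 for 6 macrophage markers, -0.16 for 5 T cell markers and -0.45 for 6 sebocyte markers.

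**Figure D3:**
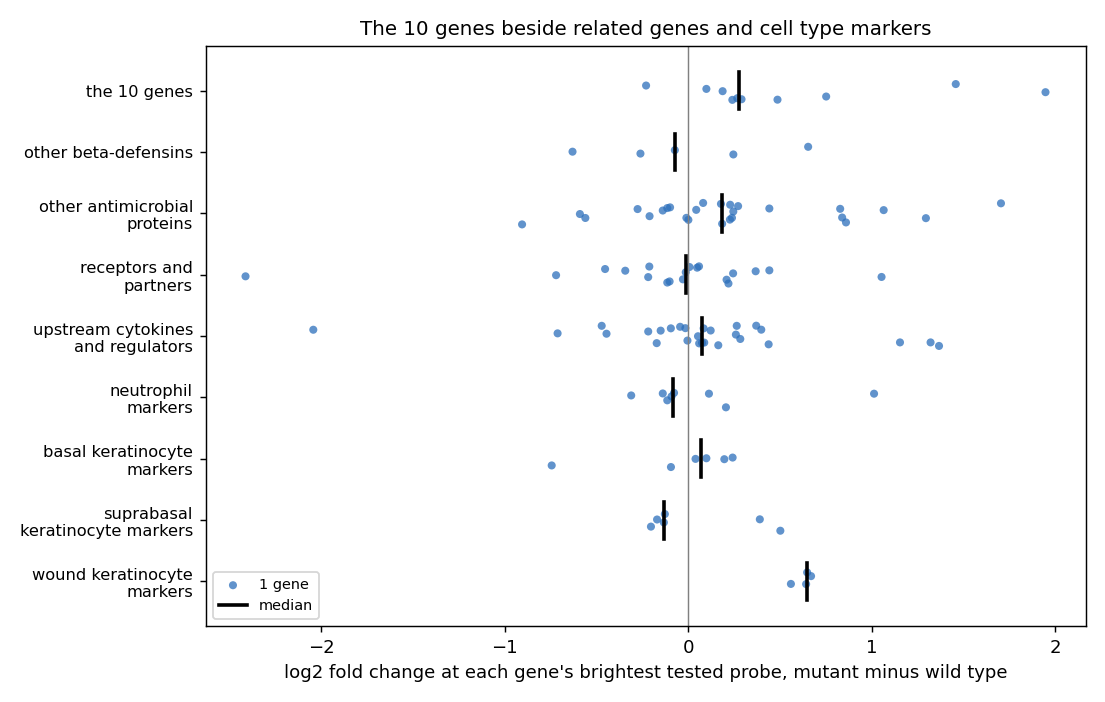
Difference, mutant minus wild type, on the log2 scale (horizontal axis) for each gene at its brightest tested probe, with the median of each list as a black bar. The 10 genes have a median of 0.28, other antimicrobial proteins 0.18, wound keratinocyte markers 0.65 and neutrophil markers -0.08. The lowest point among receptors and partners is Fpr1, whose spot on 1 array lies in the damaged corner.

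Because RelA binds κB sites, the 250 bases before the start site were searched on both strands for the κB consensus. RefSeq's promoter table (build GRCm38.p6, not the build of the probes) holds 6 of the 10 genes: Defb3, Defb6, Camp, Lcn2, Slpi and Pglyrp1. The consensus was found in Defb6, at -180, and Pglyrp1, at -93, and in 7.25% of the 32851 promoters of the table. These promoters are shown, with the match in capitals, for Defb6 (chr8:19225228-19225477, + strand) and Pglyrp1 (chr7:18884440-18884689, + strand).
Defb6: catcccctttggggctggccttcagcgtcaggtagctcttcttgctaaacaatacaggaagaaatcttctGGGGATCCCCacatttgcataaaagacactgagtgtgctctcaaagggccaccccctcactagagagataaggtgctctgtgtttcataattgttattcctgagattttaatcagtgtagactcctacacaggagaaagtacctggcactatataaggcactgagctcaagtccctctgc
Pglyrp1: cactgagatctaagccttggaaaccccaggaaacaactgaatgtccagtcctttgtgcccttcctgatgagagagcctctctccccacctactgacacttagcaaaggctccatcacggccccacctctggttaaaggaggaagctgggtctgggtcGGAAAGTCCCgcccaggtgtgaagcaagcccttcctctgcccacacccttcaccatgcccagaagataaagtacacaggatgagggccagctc
The 2 genes with a match had differences of 0.10 and 0.29. Those with none in this window had 0.75 for Defb3, 0.27 for Lcn2, -0.23 for Slpi, and 0.19 and -0.0017 at the 2 Camp probes. A core of the sites bound by C/EBP factors, TTNNGCAA, was found on either strand in Defb3, Defb6, Lcn2 and Slpi and in 9.56% of all promoters, and none of these matches overlapped a κB match.

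The promoters of Defb3 and Defb6 are alike, with 72.5% of 265 aligned columns identical, against 44.2% to 50.7% for the 14 other pairs of these promoters. They share a run of 40 bases, at -55 to -16 in Defb3 and -40 to -1 in Defb6.
Shared run: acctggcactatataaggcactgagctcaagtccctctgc
Defb3 was higher in both mutant ears and Defb6 overlapped between the groups. The difference between these 2 responses was not tested.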

How the data were processed

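Ears of 2 wild-type and 2 mutant mice were measured on 4 one-colour (Cy3) arrays. Per the file headers, the deposited spot intensity values came from Agilent Feature Extraction 10.7.3.1, with background and spatial trend corrected and arrays not scaled to each other. Probe positions are on mm9. The authors' series table holds deposited linear ratio values relative to each array's median, and was used as an alternative.

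The 3671 control spots and spots with an outlier flag were left out. The log2 intensity minus the array's 75th percentile was averaged over the spots of a probe. Probes with values on all 4 arrays were tested where both arrays of a group, or of both groups, had them well above background, 33664 of 55681, with limma 3.58.1 (lmFit, eBayes, two-sided) in R 4.3.3, with Benjamini-Hochberg adjustment over all of them at 0.05. Lists use each gene's brightest tested probe. The number of arrays limits the precision. Every probe of the 10 genes is given. Up to 3 genes per related list (largest differences) and per marker list (highest levels) are named, and Ccr6, Pglyrp2, Rnase6 and Lyz2 were chosen after their values were seen. The 10 genes and the lists were chosen with earlier results of these data known. Files were read with the package data.table (version 1.17.8) and python 3.11.15 (pandas 2.3.3), sequences aligned with biopython 1.88, figures drawn with matplotlib 3.10.9. The fit was tested on simulated data. Alternatives covered background correction, scaling, the filter, the probes used, eBayes settings, the damaged corner, replicate blocks and each ear left out.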

Additional observations from a re-analysis of the deposited data

How the results depend on the processing

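Under the 16 alternatives, 74 of 174 differences of single probes could not move. Most of the settings behind them change only the spread or the probes tested. Leaving out the damaged corner changes, of the 11 probes, only Defb4. Of the 100 that did move, 91 kept their sign. Many of these signs were fixed in advance, so that the count says little. At the 8 probes whose groups do not overlap, leaving out an ear cannot change the sign. Centring on the array median and the authors' series table are nearly the same calculation. The Defb40 call without mutant mouse 1 was the only one gained, so that 0 to 1 probes of the 10 genes passed with an ear left out. The median over the 11 probes lay between 0.24 and 0.33. Signs changed 9 times: the second Camp probe (-0.0017) became 0.013 with centring on the array median, 0.013 with the authors' series table, 0.011 with quantile normalization and 0.050 with normexp, and ranged from -0.11 to 0.11 with an ear left out. Defb6 ranged from -0.15 to 0.34 and Slpi from -0.56 to 0.10 in the same way. Over all probes, 7 passed the threshold, against 35 with eBayes trend and robust, 1 with no filter, 4 with 1 probe per gene, 2 with probes above background on all 4 arrays, and 0 to 177 with an ear left out. The cause was not tested. Both groups carry the numbers 1 and 2, and the deviations of same-numbered ears correlated at -0.159. With the replicate block 1 probe passed, and with the crossed replicate block, chosen after seeing the data, also 1, and in neither was it a probe of the 10 genes. Dim signal limits Defb40, and the wild-type spread limits Defb4.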
